A study of Mus musculus with 12 samples.

Results

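The genes described here mark the ganglionic eminences and the GABAergic interneurons they produce: *Nkx2-1*, *Lhx6*, *Dlx1*, *Dlx2*, *Dlx5*, *Dlx6*, *Gad1*, *Gad2* and *Slc32a1*. They were taken by symbol from a table of 4859 coding genes, and all 9 of the 9 symbols were found. Bulk RNA-seq was made from mouse cerebral cortex of the transgenic line Tg(Ebf2-EGFP)FB58Gsat, in which the regulatory sequence of *Ebf2* drives EGFP in early-born preplate neurons and later in Cajal-Retzius neurons. Cells were sorted by fluorescence into Ebf2-EGFP+ and Ebf2-EGFP- fractions at 3 stages (E11.5, then E13.5, then E15.5), and 2 libraries were sequenced for each of the 6 groups, 12 in all, from the dissected cortices of several pooled embryos. No group received a treatment, and the Ebf2-EGFP- cells are the EGFP-negative remainder of the same tissue, which can hold many cell types. Levels are FPKM, fragments scaled by transcript length and by the mapped fragments of the library. The paper gives sequencing depth only as an average over samples, and that of each single library is not given. The table lists only genes that the authors reported as differential between the populations, so tests between the populations are not independent of how the table was made, whereas changes between stages were not the basis of that choice.

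Interneurons of the cortex are born outside it, in the ganglionic eminences of the ventral telencephalon, and migrate tangentially into the cortical wall. The homeodomain factor NKX2-1 specifies the medial ganglionic eminence and its target LHX6 is kept by the interneurons that leave it, while the DLX factors act in progenitors and young neurons of all eminences. GAD1 and GAD2 make GABA from glutamate, and SLC32A1, the vesicular GABA transporter, loads it into synaptic vesicles.

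The dissection and the sort were first checked against markers. *Emx1*, which marks the pallium, lay between 23.8 and 109 FPKM in the 12 libraries. *Ebf2* itself measured 61.2 and 49.1 FPKM in the Ebf2-EGFP+ libraries at E11.5, 6.66 and 4.32 at E13.5, then 2.83 and 5.14 at E15.5, and at most 1.54 FPKM in any Ebf2-EGFP- library. The sort was thus matched by its defining marker. *Emx1* shows that pallial tissue was present, but cannot tell cortex alone from cortex dissected together with subpallium. Genes of the subpallium were present in the same libraries, and their courses differed, as described below. Within the Ebf2-EGFP- fraction *Nkx2-1* and *Dlx2*, for example, were highest at the earliest stage, whereas *Lhx6* was highest at E15.5.

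The 4 *Dlx* genes lie as facing pairs in the genome (GRCm38, GENCODE M21). *Dlx1* (chr2:71528113-71533981, plus strand) and *Dlx2* (chr2:71543408-71546754, minus strand) face each other across 9426 bases, and *Dlx6* (chr6:6863334-6868568, plus strand) and *Dlx5* (chr6:6877805-6882085, minus strand) do so across 9236 bases. *Gad1* lies on the same chromosome as *Dlx1*, at chr2:70553072-70602014, as do *Gad2* (chr2:22622205-22693874), *Lhx6* (chr2:36081953-36105408) and *Slc32a1* (chr2:158610767-158615748), and *Nkx2-1* lies at chr12:56531958-56536908. Both *Dlx* pairs have an antisense transcript: *Dlx1as* shares 335 of the 5396 exonic bases of *Dlx1* (6.21%), and *Dlx6os1*, listed among the coding genes under its other symbol *Dlx6as1*, shares 0 of the 2375 exonic bases of *Dlx6*, while *Dlx6os2* shares 104 of them (4.38%). The library kit is not stated to keep the strand, so reads of *Dlx1* and *Dlx1as*, or of *Dlx6* and *Dlx6os2*, cannot be told apart in the shared bases.

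RefSeq promoter windows (GRCm38.p6), 250 bases before to 50 after a start, were found for 7 of the 9 genes, in 9 windows, and not for *Dlx5* and *Dlx6*. They were searched for TAATTA, a core bound by DLX and other homeodomain proteins, and for CAGCTG, an E-box form bound by basic helix-loop-helix factors. Each motif reads the same on both strands and the motifs cannot overlap. TAATTA was in 0 of the 9 member windows, against 5.29% of all 32851 windows, and CAGCTG was in 1 of the 9, against 16.3%. Shown here are the *Lhx6* window with the matches (chr2:36105359-36105658, minus strand) and the *Nkx2-1* window (chr12:56536859-56537158, minus strand), since these genes parted most between stages, the *Dlx2* window (chr2:71546705-71547004, minus strand) for the member closest to the mean course of all, and, for comparison, both *Dlx6os1* windows (chr6:6869484-6869783 and chr6:6861634-6861933, minus strand), whose transcript followed the members closely. Capitals mark the motifs.
Lhx6: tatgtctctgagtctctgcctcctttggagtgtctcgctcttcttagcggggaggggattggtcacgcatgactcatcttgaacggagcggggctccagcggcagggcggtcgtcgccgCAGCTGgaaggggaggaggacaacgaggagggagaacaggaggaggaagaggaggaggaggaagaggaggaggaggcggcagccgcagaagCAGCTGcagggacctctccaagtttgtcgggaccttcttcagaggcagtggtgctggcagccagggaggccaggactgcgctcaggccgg
Nkx2-1: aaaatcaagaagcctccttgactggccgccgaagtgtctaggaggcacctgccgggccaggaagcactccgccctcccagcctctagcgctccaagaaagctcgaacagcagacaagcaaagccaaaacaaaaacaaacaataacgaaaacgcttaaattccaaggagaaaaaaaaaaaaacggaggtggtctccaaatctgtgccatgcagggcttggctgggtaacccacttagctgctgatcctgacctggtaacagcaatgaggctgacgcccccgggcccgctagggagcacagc
Dlx2: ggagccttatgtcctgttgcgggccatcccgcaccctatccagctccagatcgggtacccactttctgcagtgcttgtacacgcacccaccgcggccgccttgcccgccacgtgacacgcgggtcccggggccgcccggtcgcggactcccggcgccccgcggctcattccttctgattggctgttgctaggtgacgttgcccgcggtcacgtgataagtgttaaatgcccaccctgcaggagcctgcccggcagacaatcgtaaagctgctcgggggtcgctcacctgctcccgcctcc
Dlx6os1, upstream start: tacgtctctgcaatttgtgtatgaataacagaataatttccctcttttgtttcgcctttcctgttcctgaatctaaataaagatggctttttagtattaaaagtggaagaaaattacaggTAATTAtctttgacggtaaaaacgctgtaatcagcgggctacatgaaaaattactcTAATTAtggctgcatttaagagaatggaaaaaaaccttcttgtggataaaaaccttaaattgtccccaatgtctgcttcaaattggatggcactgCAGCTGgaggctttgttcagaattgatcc
Dlx6os1, downstream start: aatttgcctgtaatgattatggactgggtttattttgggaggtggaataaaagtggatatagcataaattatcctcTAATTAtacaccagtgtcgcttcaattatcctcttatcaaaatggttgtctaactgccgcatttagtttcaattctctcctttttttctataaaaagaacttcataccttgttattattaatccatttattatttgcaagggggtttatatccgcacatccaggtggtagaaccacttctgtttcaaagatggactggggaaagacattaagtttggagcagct
The *Lhx6* window held CAGCTG at 2 places, and the *Nkx2-1* and *Dlx2* windows held neither motif. The *Dlx6os1* windows held 2 and 1 matches of TAATTA, and the upstream one also 1 of CAGCTG. G and C made up 66.3% of the *Dlx2* window, 63.3% of the *Lhx6* window and 53.7% of the *Nkx2-1* window shown, and 35.7% and 35.3% of the *Dlx6os1* windows, beside a median of 52.7% over all windows, of which 29.5% reached 60%. A match is a run of letters and was not tested as a binding site.

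At E11.5 all 9 genes were called lower in Ebf2-EGFP+ than in Ebf2-EGFP- cells, and at both later stages 8 were, *Nkx2-1* being lower but not called. The calls come from limma on log2(FPKM + 1), in which 1 was added to each value, with p-values adjusted by the Benjamini-Hochberg method over the 4859 genes and a threshold of 0.05. Of all listed genes, 44.9%, 43.5% and 31.6% were called lower in Ebf2-EGFP+ cells from the earliest stage to the latest, and 36.8%, 32.1% and 25.8% higher. That balance rests on the scale, since median-of-ratios scaling gave 1984, 1752 and 1323 genes lower and 1967, 1900 and 1597 higher. That scaling took its factors from 4711 of these selected genes and draws their median difference towards 0. The split it gives thus follows in part from the method. For each of the 9 members the lower Ebf2-EGFP- library exceeded the higher Ebf2-EGFP+ library of its stage, a pattern shown by 50.1%, 49.7% and 44.6% of all listed genes. The members' median difference was -2.96, -2.47 and -2.74 on the log2 scale at the 3 stages, beside -0.19, -0.19 and -0.11 over all listed genes. Such folds understate the contrast of genes near 0, as many members were in Ebf2-EGFP+ cells. In sorted bulk samples, fewer cells of a type and less RNA per cell cannot be told apart. Under median-of-ratios scaling of the libraries the median of all genes moved up by 0.19, 0.19 and 0.13 in these comparisons, and no called member difference changed its direction or its call.

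**Figure D1:**
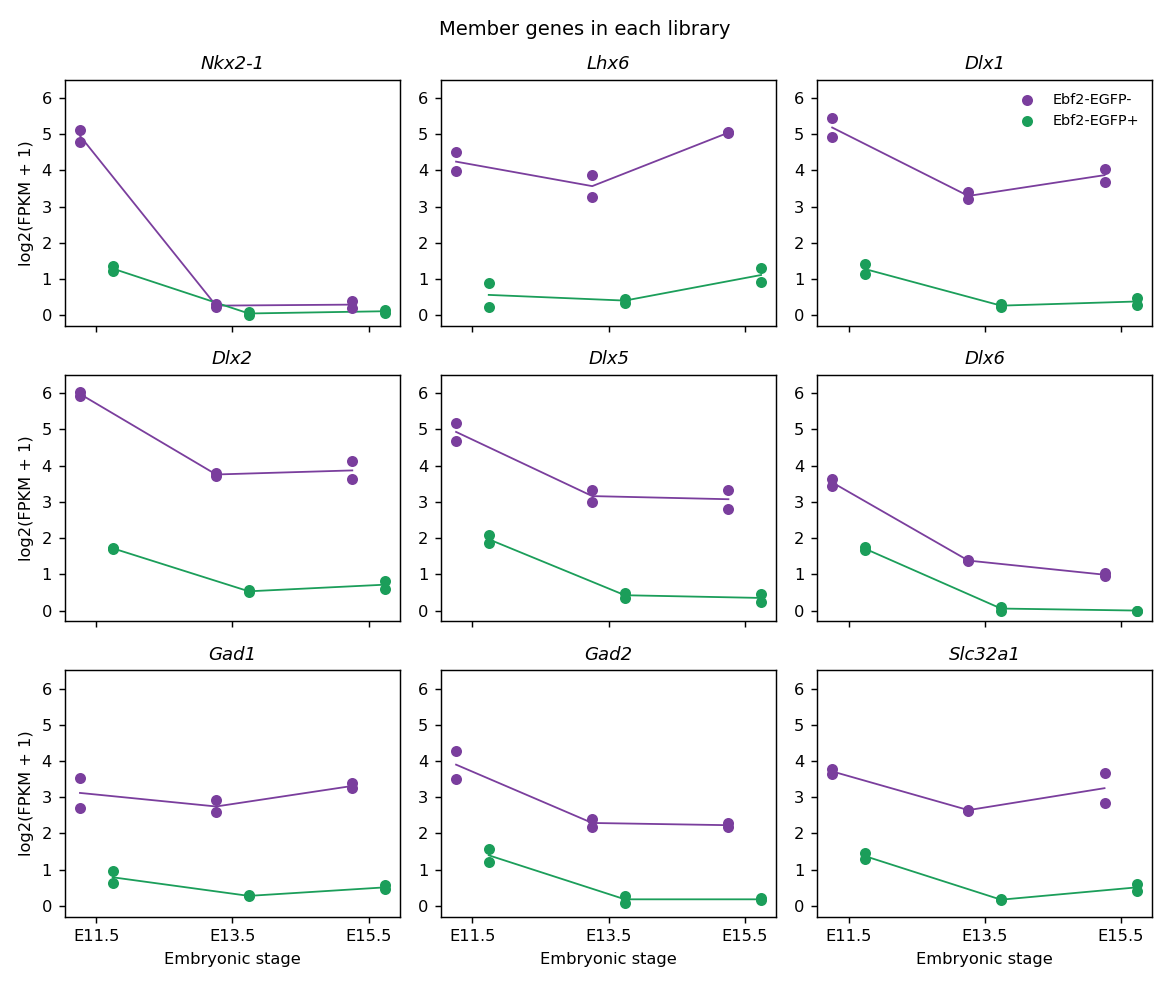
Level of each of the 9 genes, as log2(FPKM + 1), in each of the 12 libraries by embryonic stage; points are libraries and lines join the means of 2 libraries. In every panel the Ebf2-EGFP- points lie above the Ebf2-EGFP+ points of the same stage, by very little for *Nkx2-1* at E13.5 and E15.5.

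*Nkx2-1*, the selector of the medial ganglionic eminence, measured 26.5 and 33.9 FPKM in the Ebf2-EGFP- libraries at E11.5, 0.239 and 0.165 at E13.5, then 0.301 and 0.153 at E15.5. In Ebf2-EGFP+ libraries it measured 1.32 and 1.58 FPKM at E11.5, 0 and 0.0686 at E13.5, then 0.11 and 0.0491 at E15.5. It was thus high in both Ebf2-EGFP- libraries at E11.5 and near 0 in all 8 libraries of E13.5 and E15.5, where the populations did not overlap but lay within 0.301 FPKM of each other. The difference between the populations at E11.5 was -3.66 with a standard error of 0.15 (limma adjusted p = 1.72e-08), and later it was -0.22 at E13.5 (limma adjusted p = 0.198) and -0.18 at E15.5 (limma adjusted p = 0.303). With 0.1 in place of 1 added to each value, the E13.5 difference was -1.21 (limma adjusted p = 0.00822).

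*Lhx6*, which encodes a LIM homeodomain factor that acts after NKX2-1 in migrating interneurons, took another course. In Ebf2-EGFP- libraries it measured 14.8 and 21.6 FPKM at E11.5, 8.63 and 13.51 at E13.5, then 32.1 and 31.7 at E15.5. In Ebf2-EGFP+ libraries it measured 0.172 and 0.856, 0.376 and 0.272, and 0.891 and 1.46 FPKM. Both E15.5 libraries of Ebf2-EGFP- cells were above all earlier ones, and every Ebf2-EGFP+ library lay below every Ebf2-EGFP- library. The differences between the populations were -3.68, -3.16 and -3.93 (standard error 0.27 each, limma adjusted p at most 4.69e-06).

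The *Dlx* genes act in both progenitors and young neurons, and *Dlx2* was the most abundant of them in Ebf2-EGFP- cells at E11.5. It measured 59.5 and 64.7 FPKM in Ebf2-EGFP- libraries at E11.5, 12.8 and 12.2 at E13.5, then 16.4 and 11.3 at E15.5, and 2.31 and 2.28, 0.472 and 0.419, and 0.772 and 0.52 in Ebf2-EGFP+ libraries. *Dlx1*, its neighbour, measured 29.1 and 42.8, 8.16 and 9.48, and 15.48 and 11.9 FPKM in Ebf2-EGFP- libraries and 1.2 and 1.67, 0.17 and 0.233, and 0.214 and 0.393 in Ebf2-EGFP+ libraries. For both genes the E11.5 libraries of Ebf2-EGFP- cells were the highest of all 12, and no library of 1 population overlapped the other at any stage. The difference between the populations was -4.26, -3.22 and -3.15 for *Dlx2* (standard error 0.19 each) and -3.91, -3.03 and -3.49 for *Dlx1* (standard error 0.21 each), with limma adjusted p of at most 2.74e-06.

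*Dlx5* measured 24.8 and 35.1 FPKM in Ebf2-EGFP- libraries at E11.5, 9 and 6.99 at E13.5, then 9.12 and 6 at E15.5, and 2.62 and 3.23, 0.403 and 0.281, and 0.189 and 0.363 in Ebf2-EGFP+ libraries. *Dlx6*, the other gene of that pair, was the least abundant *Dlx* gene, with 9.77 and 11.51, 1.60 and 1.61, and 0.923 and 1.05 FPKM in Ebf2-EGFP- libraries. In Ebf2-EGFP+ libraries it measured 2.19 and 2.35 FPKM at E11.5, was listed at 0 and 0.0805 at E13.5, and was listed at 0 in both libraries at E15.5. At E11.5 *Dlx5* and *Dlx6* had the highest share of signal in Ebf2-EGFP+ cells among the *Dlx* genes: the Ebf2-EGFP+ mean was 9.76% and 21.3% of the Ebf2-EGFP- mean, against 3.99% for *Dlx1* and 3.69% for *Dlx2*. The log2 differences were -2.96, -2.74 and -2.72 for *Dlx5* and -1.83, -1.32 and -0.99 for *Dlx6*, all called (limma adjusted p at most 8.86e-05).

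*Gad1* and *Gad2* encode the GABA-synthesising enzymes. *Gad1* measured 5.55 and 10.5 FPKM in Ebf2-EGFP- libraries at E11.5, 4.98 and 6.52 at E13.5, then 8.47 and 9.41 at E15.5, and 0.545 and 0.936, 0.225 and 0.198, and 0.375 and 0.48 in Ebf2-EGFP+ libraries. *Gad2* measured 10.4 and 18.5, 3.54 and 4.26, and 3.51 and 3.87 FPKM in Ebf2-EGFP- libraries and 1.31 and 2, 0.216 and 0.0587, and 0.113 and 0.156 in Ebf2-EGFP+ libraries. *Gad2* was highest in the E11.5 libraries, whereas for *Gad1* the E11.5 libraries overlapped both later stages, and those of E15.5 lay above those of E13.5. *Slc32a1* measured 11.47 and 12.8, 5.32 and 5.19, and 11.6 and 6.17 FPKM in Ebf2-EGFP- libraries and 1.45 and 1.75, 0.131 and 0.122, and 0.523 and 0.337 in Ebf2-EGFP+ libraries. No library of 1 population overlapped the other for these 3 genes, and the Ebf2-EGFP- replicates of *Slc32a1* lay furthest apart at E15.5. The population differences were -2.33, -2.47 and -2.80 for *Gad1*, -2.50, -2.11 and -2.05 for *Gad2*, and -2.34, -2.47 and -2.74 for *Slc32a1*, with limma adjusted p of at most 3.09e-05.

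**Figure D2:**
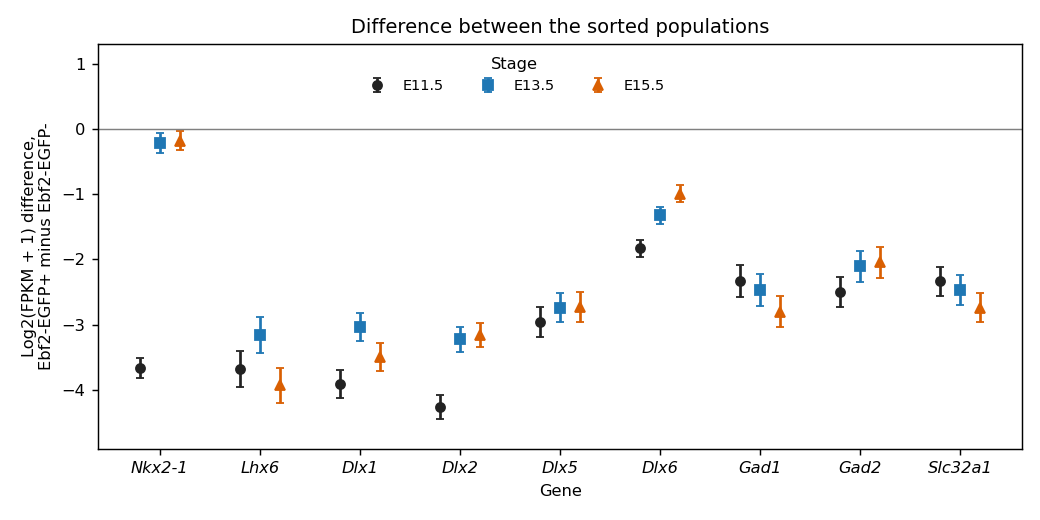
Difference of log2(FPKM + 1) between the populations, Ebf2-EGFP+ minus Ebf2-EGFP-, for each gene at each stage; points are limma estimates from 2 libraries per group and bars their standard errors. The *Nkx2-1* difference is -3.66 at E11.5 and near 0 later, and the other 8 genes are below 0 at all 3 stages, *Dlx6* least.

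Taken as a share, the Ebf2-EGFP+ mean of the members ran from 2.83% (*Lhx6*) to 21.3% (*Dlx6*) of the Ebf2-EGFP- mean at E11.5, with a median of 9.22%. For the 7 members whose Ebf2-EGFP- mean reached 1 FPKM, with no library at 0 in Ebf2-EGFP+ cells, the median share was 3.52% and then 3.69% at the later stages. Over all listed genes under the same rule the median share was 67.6%, 72.8% and 88.6% at the 3 stages. The shares of *Gad2* and *Slc32a1* were 11.4% and 13.2% at E11.5 and 3.52% and 2.41% at E13.5.

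From E11.5 to E13.5, 8 of the 9 genes fell within Ebf2-EGFP- cells, beside 33.5% of all listed genes that fell and 26% that rose. Under median-of-ratios scaling 1357 listed genes fell and 1453 rose. *Nkx2-1* fell the most, at -4.69 on the log2 scale (standard error 0.15, limma adjusted p = 2.23e-09), and its mean went from 30.2 ± 5.27 to 0.202 ± 0.0518 FPKM (SD, n = 2). The others that fell clearly were *Dlx2* (-2.22), *Dlx6* (-2.16), *Dlx1* (-1.89), *Dlx5* (-1.77), *Gad2* (-1.61) and *Slc32a1* (-1.07; limma adjusted p at most 0.00204). The members' median change was -1.77, beside -0.14 over all listed genes, a median that the other scaling moved up by 0.12. *Gad1* was not called (-0.37, limma adjusted p = 0.195), and its E11.5 libraries decided the value: without replicate 1 it was -0.78 (limma adjusted p = 0.0174) and without replicate 2 it was 0.03 (limma adjusted p = 0.914). The fall of *Lhx6* was small and near the threshold (-0.68, limma adjusted p = 0.0488).

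That call for *Lhx6* was lost under several alternatives. The value was -0.72 with 0.1 added to each value (limma adjusted p = 0.21) and -0.51 under median-of-ratios scaling (limma adjusted p = 0.139). Within Ebf2-EGFP- cells it was -0.42 without E11.5 replicate 2 (limma adjusted p = 0.304) and -0.38 without E13.5 replicate 1 (limma adjusted p = 0.305). Leaving out any 1 Ebf2-EGFP+ library of E13.5 or E15.5 kept the value and gave limma adjusted p from 0.0502 to 0.0592. The fall of *Nkx2-1*, by contrast, was called under all 18 alternatives.

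From E13.5 to E15.5, 3 of the 9 genes rose within Ebf2-EGFP- cells and 1 fell, beside 28.8% of all listed genes that rose and 34.8% that fell. Median-of-ratios scaling turned that balance, to 1557 listed genes that rose and 1539 that fell. *Lhx6* rose by 1.48 (standard error 0.27, limma adjusted p = 0.00098), from 11.1 ± 3.45 to 31.9 ± 0.251 FPKM (SD, n = 2), 2.88 times the earlier mean, and this call held under all 18 alternatives. *Dlx1* rose by 0.57 (limma adjusted p = 0.0345), *Slc32a1* by 0.61 (limma adjusted p = 0.0357), and *Dlx6* fell (-0.39, limma adjusted p = 0.0225). *Gad1* was not called at 0.57 (limma adjusted p = 0.0566), but was under median-of-ratios scaling (0.67, limma adjusted p = 0.0329). It was also called with the replicate number as a block (limma adjusted p = 0.00866). That block takes the spread between replicate numbers out of the error, so for changes between stages its p-values can be too small. The other 4 genes, *Dlx2*, *Dlx5*, *Gad2* and *Nkx2-1*, differed by at most 0.11 in size. The members' median change was 0.11, beside -0.10 over all listed genes.

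Apart from that of *Lhx6*, these late changes were lost under several alternatives. The rises of *Dlx1* and *Slc32a1* and the fall of *Dlx6* were not called in a fit of the compared groups only (limma adjusted p = 0.0747, 0.139 and 0.0689). With 0.1 added to each value they were not called either, though no smaller in size (0.62, 0.68 and -0.65, limma adjusted p = 0.0876, 0.0686 and 0.0728). The fall of *Dlx6* was also lost under median-of-ratios scaling (-0.31, limma adjusted p = 0.0557). Within Ebf2-EGFP- cells, *Dlx1* was 0.48 without E13.5 replicate 1 and 0.40 without E15.5 replicate 1 (limma adjusted p = 0.166 and 0.188), and *Slc32a1* was 0.20 without E15.5 replicate 1 (limma adjusted p = 0.382). *Slc32a1* was also no longer called without either E13.5 library of these cells (0.62 and 0.59, limma adjusted p = 0.106 and 0.0989) or either Ebf2-EGFP+ library of E11.5 (limma adjusted p = 0.0505 and 0.0504). *Dlx6* was between -0.44 and -0.34 without any 1 Ebf2-EGFP- library of E13.5 or E15.5 (limma adjusted p from 0.0504 to 0.0956). *Gad1* was called without either Ebf2-EGFP- library of E11.5 (limma adjusted p = 0.0205 and 0.0195) and without E13.5 replicate 2 of these cells (0.73, limma adjusted p = 0.0495).

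**Figure D3:**
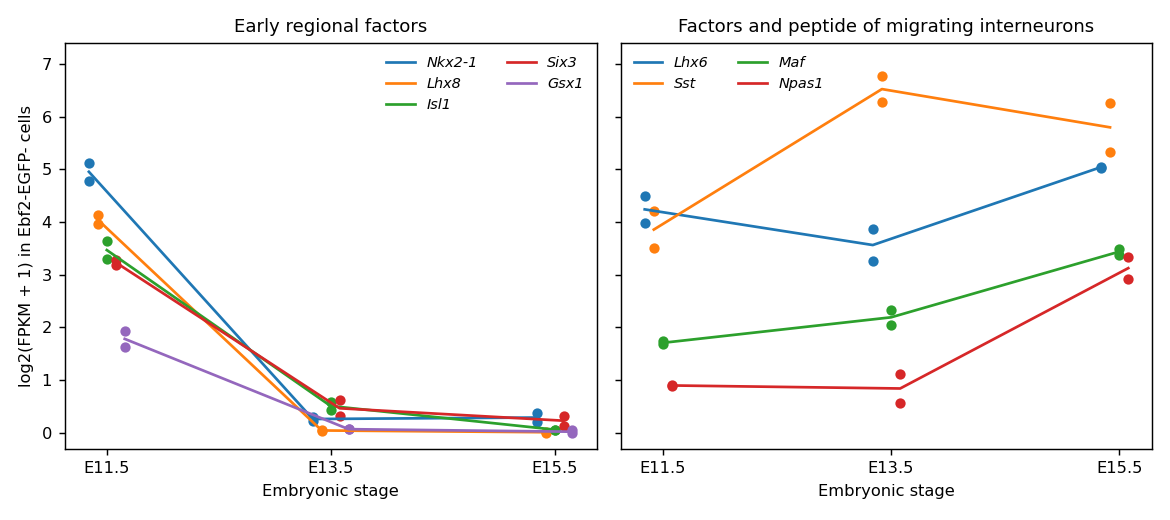
Level of *Nkx2-1* and 4 other early regional factors (left) and of *Lhx6* and 3 other genes of migrating interneurons (right) in Ebf2-EGFP- cells, as log2(FPKM + 1), by stage; points are libraries, 2 per stage, and lines join their means. On the left all values are at or below 0.535 FPKM from E13.5 on, and on the right *Lhx6*, *Maf* and *Npas1* are highest at E15.5 and *Sst* at E13.5.

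The separate courses of *Nkx2-1* and *Lhx6* can be set beside other genes of the same territory, drawn from lists of subpallial and interneuron genes. *Lhx8*, which like *Nkx2-1* belongs to the medial eminence, measured 14.5 and 16.5 FPKM in Ebf2-EGFP- libraries at E11.5 and at most 0.0426 in those of E13.5 and E15.5. *Isl1*, *Six3* and *Gsx1*, factors of subpallial progenitors or striatal neurons, measured from 8.83 to 11.46, 8.08 to 8.74 and 2.10 to 2.82 FPKM at E11.5 and at most 0.506, 0.535 and 0.0543 later. These 4 genes fell with *Nkx2-1* from E11.5 to E13.5, with log2 changes of -4, -2.96, -2.77 and -1.71 (limma adjusted p at most 2.45e-07). *Sst*, which encodes the peptide somatostatin, did not follow *Lhx6*: it measured 10.3 and 17.5, 107 and 76.7, and 75.4 and 39.3 FPKM in Ebf2-EGFP- libraries, and rose by 2.66 from E11.5 to E13.5 (limma adjusted p = 9.58e-05), a step over which *Lhx6* did not rise. *Maf* and *Npas1*, transcription factors of migrating and maturing interneurons, rose with *Lhx6* from E13.5 to E15.5, by 1.24 and 2.28 (limma adjusted p = 0.000166 and 4.34e-05). They do not stand for their list of 13 postmitotic factors, of which 4 rose and 4 fell over that step, with a median of -0.06. Of all listed genes, 28.8% rose and 34.8% fell over it.

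Within Ebf2-EGFP+ cells, 7 of the 9 genes fell from E11.5 to E13.5, beside 36.1% of all listed genes that fell and 21.8% that rose. Under median-of-ratios scaling the split of all genes moved from 1057 higher and 1755 lower to 1343 higher and 1446 lower, and the median of all genes moved up by 0.16 from -0.20. Among them were *Dlx6* (-1.65 on the log2 scale, its level going from 2.19 and 2.35 to 0 and 0.0805 FPKM), *Dlx5* (-1.54) and *Nkx2-1* (-1.24), with limma adjusted p of at most 0.00018. *Gad2*, *Slc32a1*, *Dlx2* and *Dlx1* fell with values of -1.21, -1.20, -1.19 and -1.01 (limma adjusted p at most 0.00194). The size of these falls depended on the value added. With 0.1 in place of 1 they were -2.94, -2.90, -2.14 and -2.34, and those of *Dlx6*, *Dlx5* and *Nkx2-1* were -4.14, -2.78 and -3.57. *Lhx6* was not called, and neither was *Gad1* (-0.51, limma adjusted p = 0.0864), which was called with the replicate block (limma adjusted p = 0.0154), with 0.1 added to each value (-1.39, limma adjusted p = 0.00393), in a fit of the compared groups only (limma adjusted p = 0.00529) and without either Ebf2-EGFP- library of E11.5 (limma adjusted p = 0.0336 and 0.0319). The limit of the replicate block for changes between stages, given above, holds here too. From E13.5 on, all 9 genes lay under 1 FPKM in the Ebf2-EGFP+ libraries, except *Lhx6* in replicate 2 of E15.5 at 1.46 FPKM.

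From E13.5 to E15.5, limma called 0 of the 9 genes within Ebf2-EGFP+ cells, beside 41.9% of all listed genes in either direction, and 1 had an unadjusted p under 0.05. That gene was *Lhx6*, at 0.71 (limma adjusted p = 0.0551), with 0.376 and 0.272 FPKM at E13.5, then 0.891 and 1.46 at E15.5. Its libraries of both stages did not overlap. It was called under median-of-ratios scaling (0.77, limma adjusted p = 0.0426) and with 0.1 added to each value (1.57, limma adjusted p = 0.0208). The same held in a fit of the compared groups only (limma adjusted p = 0.0156) and among genes with a mean of at least 1 FPKM (limma adjusted p = 0.0498). With the replicate block it was called as well (limma adjusted p = 0.00703, standard error 0.18), a p-value that can be too small for a change between stages. It was also called, with the value unchanged, without either Ebf2-EGFP+ library of E11.5 (limma adjusted p = 0.0473 and 0.0475) or either Ebf2-EGFP- library of E13.5 (limma adjusted p = 0.0446 and 0.0444). It was not called under the other 9 of the 18 alternatives, among them those without either Ebf2-EGFP+ library of E13.5 (0.76 and 0.65, limma adjusted p = 0.131 and 0.171) or of E15.5 (0.90 and 0.52, limma adjusted p = 0.0616 and 0.261). *Slc32a1*, not called at 0.34 (limma adjusted p = 0.256), was called with 0.1 added to each value (1.21, limma adjusted p = 0.00822) and in a fit of the compared groups only (limma adjusted p = 0.0344).

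Whether the contrast between the populations itself changed was tested by the difference of differences. From E11.5 to E13.5 it changed in 3 of the 9 genes, beside 35.2% of all listed genes in either direction. The contrast became smaller on the log2(FPKM + 1) scale by 3.45 for *Nkx2-1* (standard error 0.21, limma adjusted p = 1.69e-06), by 1.03 for *Dlx2* (standard error 0.26, limma adjusted p = 0.0105) and by 0.88 for *Dlx1* (standard error 0.30, limma adjusted p = 0.0422). For *Nkx2-1* the level in Ebf2-EGFP- cells came down to near that of Ebf2-EGFP+ cells, and the change lay between 3.08 and 3.62 under all 18 alternatives.

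For *Dlx1* and *Dlx2* the change depended on the value added. With 0.1 in place of 1 it was 0.17 for *Dlx2* (limma adjusted p = 0.732) and turned to -0.35 for *Dlx1* (limma adjusted p = 0.566), and as a share the Ebf2-EGFP+ mean of *Dlx1* went from 3.99% to 2.29% of the Ebf2-EGFP- mean and that of *Dlx2* from 3.69% to 3.56%. *Dlx1* was also lost under median-of-ratios scaling (0.77, limma adjusted p = 0.063). It lost its call, too, at values from 0.61 to 1.02 without any 1 of the following: either Ebf2-EGFP+ library of E11.5, Ebf2-EGFP- replicate 2 of E11.5, and any of the 4 libraries of E13.5 (limma adjusted p from 0.0561 to 0.169). *Dlx6* was not called at 0.50 (limma adjusted p = 0.0553), was called at the same value with the replicate block (limma adjusted p = 0.0382) and at 0.61 without Ebf2-EGFP- replicate 1 of E11.5 (limma adjusted p = 0.0423), and was called in the other direction, at -1.49, with 0.1 added to each value (limma adjusted p = 0.0193). *Slc32a1*, at -0.14 (limma adjusted p = 0.775), was called at -1.71 with 0.1 added to each value (limma adjusted p = 0.0113).

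From E13.5 to E15.5, limma found a change of the contrast in 0 of the 9 genes, beside 12.6% of all listed genes (610), and 0 had an unadjusted p under 0.05. The count over all genes was unstable, from 125 to 1135 with 1 library left out, 138 in a fit of the compared groups only and 1775 with the replicate block. The change furthest from 0 was that of *Lhx6* (-0.77, limma adjusted p = 0.185), which was called with the replicate block (limma adjusted p = 0.0398) and was 0.01 with 0.1 added to each value (limma adjusted p = 0.992). Its value lay between -1.07 and -0.47 with 1 library left out. These libraries therefore gave no stable call for a difference in the course of *Lhx6* between the populations.

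The order of the 9 levels, which FPKM allows since it is per transcript length, changed with stage in Ebf2-EGFP- cells. At E11.5 it ran *Dlx2* (62.1 FPKM), *Dlx1* (35.9), *Nkx2-1* (30.2), *Dlx5* (29.9), *Lhx6* (18.2), *Gad2* (14.5), *Slc32a1* (12.1), *Dlx6* (10.6) and *Gad1* (8.04). *Dlx2* stood clear of *Dlx1* and *Dlx5* clear of *Lhx6*, and all other neighbours in the order overlapped between their libraries. At E15.5 *Lhx6* led at 31.9 FPKM, clear of *Dlx2* (13.8) and *Dlx1* (13.7), which overlapped, followed by *Gad1* (8.94), *Slc32a1* (8.90) and *Dlx5* (7.56), which overlapped too, and *Gad2* (3.69), *Dlx6* (0.987) and *Nkx2-1* (0.227), each clear of the next. Summed over the 9 genes, the Ebf2-EGFP- libraries held 192 and 251 FPKM at E11.5, 54.3 and 59.9 at E13.5, then 97.9 and 81.6 at E15.5, and the Ebf2-EGFP+ libraries 13.1 and 16.6, 1.99 and 1.73, and 3.19 and 3.76.

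Ratios taken within a library do not depend on how libraries are scaled against each other, and several differed more between stages than between replicates in Ebf2-EGFP- cells. *Gad1* over *Gad2* was 0.534 and 0.568 at E11.5, 1.40 and 1.53 at E13.5, then 2.41 and 2.43 at E15.5, so that *Gad2* was the more abundant of the enzyme genes at E11.5 and *Gad1* later. *Lhx6* over *Dlx1* was 0.508 and 0.506, 1.06 and 1.43, and 2.07 and 2.66. In both ratios the stages did not overlap. *Dlx5* over *Dlx6* was 2.54 and 3.05 at E11.5, 5.63 and 4.34 at E13.5, then 9.87 and 5.71 at E15.5, so that the E15.5 replicates differed widely. These ratios are descriptions of the libraries and were not tested.

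**Figure D4:**
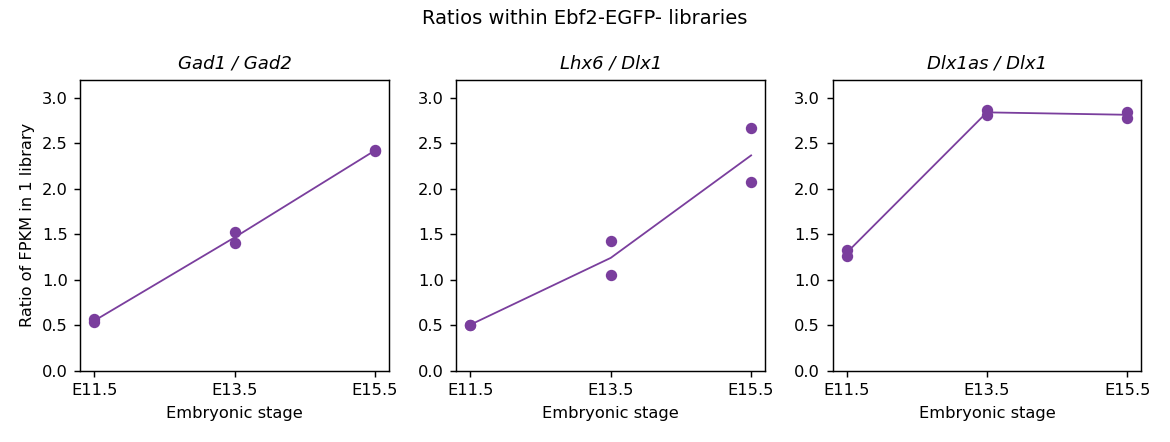
Ratio of FPKM of *Gad1* to *Gad2*, *Lhx6* to *Dlx1* and *Dlx1as* to *Dlx1* within each Ebf2-EGFP- library, by stage; points are libraries, 2 per stage, lines join their means, and the axis starts at 0. The first ratio goes from 0.534 and 0.568 at E11.5 to 2.41 and 2.43 at E15.5.

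The antisense transcripts shared the contrast of their partners. *Dlx1as* measured 38.5 and 54.2, 23.4 and 26.7, and 43.1 and 33.9 FPKM in Ebf2-EGFP- libraries and 1.08 and 2.09, 0.602 and 0.613, and 1.45 and 1.49 in Ebf2-EGFP+ libraries. Its difference between the populations was -4.20, -4.01 and -3.99 (standard error 0.22 each, limma adjusted p at most 1.42e-06). Relative to *Dlx1* it was 1.33 and 1.27 at E11.5, 2.87 and 2.81 at E13.5, then 2.78 and 2.85 at E15.5 in Ebf2-EGFP- libraries, higher in all libraries after E11.5. The lncRNA table lists a *Dlx1as* transcript at other levels, 59.6 and 82.4, 32 and 39.7, and 47.6 and 45.6 FPKM in the same libraries, so the ratio depends on the table used. *Dlx6as1* measured 23.5 and 38.9, 7.79 and 7.36, and 6.27 and 6.85 FPKM in Ebf2-EGFP- libraries, above *Dlx6* in each of them, and its difference was -3.64, -2.87 and -2.62 (standard error 0.23 each, limma adjusted p at most 5.25e-06).

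Wider lists of the same lineage were counted in the same way. Of all listed genes, 44.9%, 43.5% and 31.6% were called lower in Ebf2-EGFP+ cells at the 3 stages, and 36.8%, 32.1% and 25.8% higher. Within Ebf2-EGFP- cells 33.5% fell and 26% rose from E11.5 to E13.5. Some list counts lay near these shares, and no list was tested against them. Of 7 subpallial progenitor factors in the table (of 8 in the list), 7, 5 and 4 were lower in Ebf2-EGFP+ cells at the successive stages, and 7 fell within Ebf2-EGFP- cells between E11.5 and E13.5, as 8 of the 9 members did. Of 13 postmitotic factors (of 14), 9, 8 and 8 were lower in Ebf2-EGFP+ cells and 2, 1 and 1 higher, and within Ebf2-EGFP- cells 6 fell and 4 rose from E11.5 to E13.5. Of 8 migration receptors and peptides (of 12), 3, 4 and 4 were lower and 1, 1 and 2 higher. *Npy*, another interneuron peptide, measured 3.75 and 7.28, 13.7 and 8.59, and 24.9 and 24.1 FPKM in Ebf2-EGFP- libraries and 0.212 and 0.889, 1.95 and 0.799, and 18.9 and 25.7 in Ebf2-EGFP+ libraries. Its populations were apart at E11.5 and E13.5, as for the 9 members, and overlapped at E15.5.

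Genes for the uptake and breakdown of GABA and for chloride transport were counted as well. Of 5 in the table (of 7), 2, 4 and 2 were lower in Ebf2-EGFP+ cells and 0, 0 and 1 higher, with a median of -0.41, -0.57 and 0.24. Of all listed genes, 44.9%, 43.5% and 31.6% were lower and 36.8%, 32.1% and 25.8% higher. Of 7 striatal projection neuron genes (of 11), 0, 2 and 0 were lower and 3, 3 and 4 higher, with medians of 0.65, -0.19 and 1.15. *Ebf1* led that list in Ebf2-EGFP+ libraries at E11.5, at 22.3 and 20.3 FPKM. The paper counts *Ebf1* among genes tied to the fate of Cajal-Retzius neurons, so the list does not mark striatal neurons alone. *Ppp1r1b* led that list at E15.5, at 96.1 and 62.2 FPKM in Ebf2-EGFP+ against 23.4 and 11.9 in Ebf2-EGFP- libraries. Unlike that of the members, the median of that list was above 0 at E11.5 and E15.5, while at E13.5 it was below 0.

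**Figure D5:**
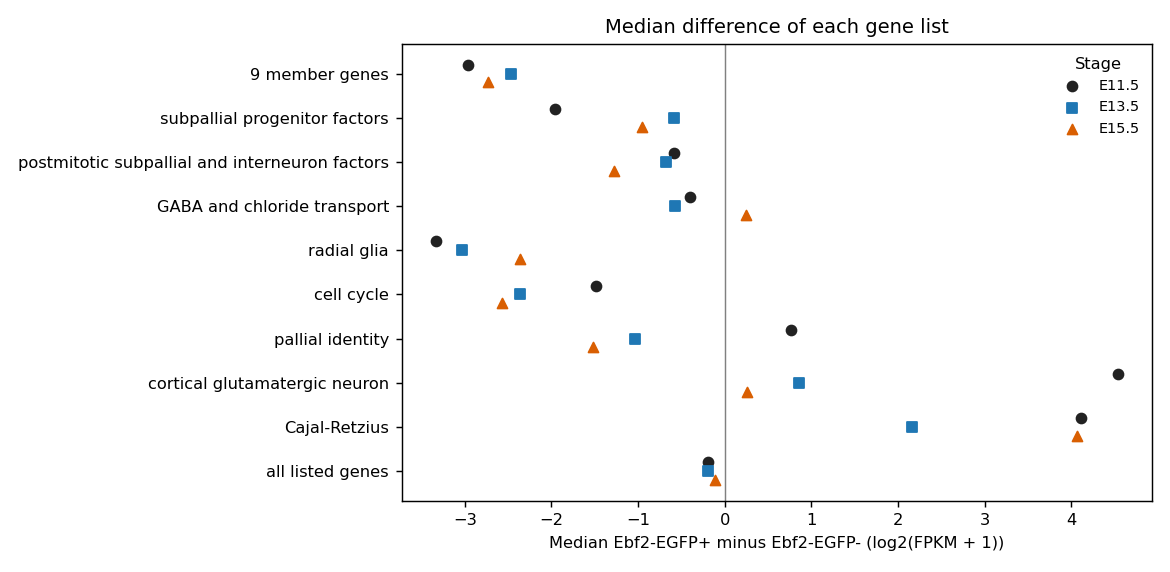
Median difference of log2(FPKM + 1) between the populations, Ebf2-EGFP+ minus Ebf2-EGFP-, over the 9 genes, 8 other lists and all 4859 listed genes; each symbol is the median over genes at 1 stage, from 2 libraries per group, and carries no error bar. The members lie at -2.96, -2.47 and -2.74, beside -3.33, -3.03 and -2.37 for radial glia and 4.11, 2.16 and 4.07 for Cajal-Retzius genes.

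Progenitor markers shared the direction of the members between the populations. Of all listed genes, 44.9%, 43.5% and 31.6% were lower in Ebf2-EGFP+ cells at the 3 stages. All 8 of 8 radial glia genes were lower in Ebf2-EGFP+ cells throughout, with medians of -3.33, -3.03 and -2.37, near those of the members, and a summed level, led by *Vim* in 11 of the 12 libraries, of 1624 and 1341, 1575 and 1053, and 817 and 456 FPKM in Ebf2-EGFP- libraries against 430 and 406, 222 and 201, and 152 and 89.0 in Ebf2-EGFP+ libraries. So were 5 of 5 cell cycle genes, with a summed level of 534 and 465, 350 and 229, and 93.4 and 49.7 FPKM against 184 and 162, 69.2 and 41.4, and 7.35 and 7.39, led by *Top2a* or *Ccna2*. Between E13.5 and E15.5, 34.8% of all listed genes fell within Ebf2-EGFP- cells. Unlike *Lhx6*, 7 of the 8 radial glia genes and 5 of the 5 cell cycle genes fell over that step. These are markers of cells that also lack the reporter, and their part in the result was not tested.

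The fall of *Nkx2-1* and the *Dlx* genes after E11.5 went with a fall of markers from outside the neural wall. From E11.5 to E13.5, 33.5% of all listed genes fell and 26% rose within Ebf2-EGFP- cells, and 36.1% fell within Ebf2-EGFP+ cells. The 6 meningeal or fibroblast genes, led by *Col3a1* at E11.5, summed to 129 and 110 FPKM in Ebf2-EGFP- libraries and 41.9 and 47.2 in Ebf2-EGFP+ libraries at E11.5, and to at most 5.57 FPKM in any later library, and 6 of the 6 fell within Ebf2-EGFP- cells, 5 within Ebf2-EGFP+ cells. The 5 erythroid genes in the table (of 7), led by *Hbb-y* at E11.5, summed to 1306 and 2794 FPKM in Ebf2-EGFP- libraries at E11.5, 132 and 103 at E13.5, then 202 and 1220 at E15.5, and to between 4.96 and 98.3 in Ebf2-EGFP+ libraries; the embryonic globins *Hba-x*, *Hbb-y* and *Hbb-bh1* were at most 4.07 FPKM after E11.5. The 3 endothelial genes in the table (of 4) summed to 7.19 and 4.39 FPKM in Ebf2-EGFP- libraries at E11.5 and at most 2.94 in any other. Pallial markers moved the other way: 5 of the 6 rose within Ebf2-EGFP- cells, *Neurog2* from 19.9 and 23.0 to 158 and 91.7 FPKM, and so did 8 of the 9 cortical glutamatergic genes. What was dissected and sorted at each stage, and the age of the cells, cannot be told apart in these libraries, and for these markers their part in the result was not tested.

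Cajal-Retzius genes, which mark the cells that keep the reporter, ran opposite to the members between the populations: of 8, 7, 7 and 8 were higher in Ebf2-EGFP+ cells at the 3 stages and 0 lower. The cortical glutamatergic genes were higher in 7, 6 and 4 of 9 and lower in 0, 0 and 2. Of the microglial list only *Aif1* (1 of 4) was in the table, at 0.111 to 0.773 FPKM in Ebf2-EGFP- and 0.272 to 2.92 in Ebf2-EGFP+ libraries. The pallial genes were higher in 2, 0 and 1 of 6 and lower in 0, 4 and 4. These counts stand beside 36.8%, 32.1% and 25.8% of all listed genes higher and 44.9%, 43.5% and 31.6% lower.

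To find genes of a like course, the values of each gene were standardised over the 12 libraries and compared with the mean standardised profile of the 9 members by the root mean square difference. Among the members, *Dlx2* (0.12), *Dlx1* (0.144), *Dlx5* (0.147) and *Gad2* (0.149) lay nearest their mean, followed by *Slc32a1* (0.235). *Gad1* (0.387), *Dlx6* (0.466), *Lhx6* (0.492) and *Nkx2-1* (0.662) lay further off. Each member is 1 of the 9 genes behind that mean, which draws it nearer than a gene from outside, so members and other genes are not ranked against each other. The 10 nearest genes outside the members were *Gm14204* (0.116), *Dlx6as1* (0.125), *Zcchc24* (0.154), *Tox2* (0.173), *Gm5607* (0.174), *Car2* (0.209), *Slc7a2* (0.222), *Col22a1* (0.233), *Arpc1b* (0.235) and *Hyal1* (0.248). *Gm14204*, the nearest, had means of 10.3, 3.12 and 4.35 FPKM in Ebf2-EGFP- cells and 1.12, 0.0780 and 0.157 in Ebf2-EGFP+ cells. *Tox2*, a factor with an HMG box, had 12.4, 4.54 and 5.35 against 2.25, 0.541 and 0.716 FPKM. The measure describes 12 libraries and carries no test.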

How the data were processed

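Levels were the FPKM that the authors deposited for 12 polyadenylated RNA-seq libraries; per the submitters' processing notes, reads were aligned to mm10 (the assembly GRCm38) with TopHat2 2.0.8b and quantified with Cufflinks 2.2.0. The deposited tables also hold the authors' group means, folds and p-values between populations, which were not used. Libraries were assigned by the stage, population and replicate number in their labels. The FPKM were used unscaled, with a pseudocount of 1, on the log2 scale; limma 3.58.1 in R 4.3.3 fitted all 12 libraries as 6 groups with a variance trend on mean expression, without covariates. P-values were two-sided, adjusted by the Benjamini-Hochberg method over the 4859 genes in each of 9 contrasts, and the threshold was 0.05. The scripts were also tested on simulated data. Tables were made in Python 3.11.15 with pandas 2.3.3.

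At each stage the populations carry the same replicate numbers. Over the genes, the residuals of an Ebf2-EGFP+ library and the Ebf2-EGFP- library of its number had correlations of 0.431, 0.534 and 0.431 in stage order, each past 0.1, so the numbers were taken as pairs for a fit with the replicate number within stage as a block. The study calls the libraries biological replicates. For a change between stages, that block takes the spread between replicate numbers out of the error, so its p-values there can be too small.

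The members and the 14 lists were chosen with earlier results of these data known. Genes named besides the members come from the lists, from the 10 nearest profiles and from antisense transcripts matched by symbol, and some list genes are not reported here. Several lists are incomplete in the table. Alternatives were a pseudocount of 0.1, median-of-ratios scaling, genes with a mean of at least 1 FPKM, no variance trend, the replicate block, a fit of the compared groups only, and each library left out, 18 in all. The depth of each library is not given, only an average over samples, and FPKM hold no fragment counts, so no counting error was computed, and a value of exactly 0 is given as listed.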

Additional observations from a re-analysis of the deposited data

Results flagged for a closer look

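The difference between the populations itself changed from E11.5 to E13.5 for 3 of the 9 genes in the limma interaction contrast, beside 35.2% of all listed genes: by 3.45 on the log2 scale for *Nkx2-1*, 1.03 for *Dlx2* and 0.88 for *Dlx1* (Ebf2-EGFP+ minus Ebf2-EGFP-, E13.5 minus E11.5). For *Nkx2-1* the libraries went from 26.5 and 33.9 against 1.32 and 1.58 FPKM to 0.239 and 0.165 against 0 and 0.0686 FPKM. For *Dlx2* and *Dlx1* both populations fell, and the change was not called with 0.1 added to each value (0.17 and -0.35).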

How the results depend on the processing

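Of 1259 values that 70 gene results took under the 18 alternatives, 1193 kept their direction and their side of the threshold, 35 lost the call, 27 gained one and 4 reversed. The 70 were the called results of members, member results whose call changed under an alternative, and others picked for the text. These counts are therefore no general measure of stability. The members called between the populations numbered 9 (E11.5), 8 to 9 (E13.5) and 8 (E15.5) under all alternatives. In the main fit, 3972, 3673 and 2788 of the 4859 listed genes were called at these stages, and the authors had selected them for such a difference. With a pseudocount of 0.1 in place of 1, the change of the population difference from E11.5 to E13.5 reversed for *Dlx1* (-0.35) and *Dlx6* (-1.49), and that from E13.5 to E15.5 for *Lhx6* (0.0117). Of the members whose change was not called and is not given singly, *Dlx5* (-0.90) and *Gad2* (-1.13) also turned in the earlier interval, and *Slc32a1* (0.53), *Gad1* (0.11) and *Dlx5* (-0.16) in the later. Some uncalled values near 0 turned under median-of-ratios scaling as well. The cause was not tested. The stage change of *Gad1* in Ebf2-EGFP- cells between E11.5 and E13.5 lay between -0.78 and 0.0323 with 1 library left out.

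Of the 9 members, 4 were called within Ebf2-EGFP- cells between E13.5 and E15.5, against 1 with a pseudocount of 0.1, 1 in a fit of the compared groups only and 1 to 5 with 1 library left out, and of all listed genes 3089, against 1962 to 3129. Within Ebf2-EGFP+ cells between E13.5 and E15.5, 0 members were called, against 2 with a pseudocount of 0.1, 2 in a fit of the compared groups only, 1 under median-of-ratios scaling, 1 among genes with a mean of at least 1 FPKM and 0 to 1 with 1 library left out, and of all listed genes 2035, against 1247 to 2131. The population difference changed from E13.5 to E15.5 in 610 listed genes, against 138 in a fit of the compared groups only and 125 to 1135 with 1 library left out. The cause was not tested, though a fit of the compared groups only has fewer samples.

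With the replicate number as a block (replicate block), 1 member instead of 0 was called within Ebf2-EGFP+ cells between E13.5 and E15.5 (*Lhx6*), and 1 instead of 0 for the change of the population difference from E13.5 to E15.5 (*Lhx6*), with 1775 instead of 610 listed genes. The block gained the calls of *Gad1* within Ebf2-EGFP- cells between E13.5 and E15.5 (0.57), of *Gad1* within Ebf2-EGFP+ cells between E11.5 and E13.5 (-0.51) and of *Dlx6* for the change of the population difference from E11.5 to E13.5 (0.50). It changed no other call of a member. For changes between stages the block takes the spread between replicate numbers out of the error, so the calls gained there can rest on p-values that are too small.

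With 2 libraries per group, a library left alone in its group is assumed to vary like the other groups. Depth is known only as an average over samples, and FPKM hold no fragment counts, so no counting error was set on the lowest values. The table holds only genes called between the populations, so shares of all listed genes are not shares of the transcriptome, and the variance trend is learned from that selection. Bulk levels of sorted cells mix the number of cells of a type with the RNA in each.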
